A study of Mus musculus with 6 samples.

Results

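The mitochondrial ribosomal proteins were followed in hippocampi of p300+/- mice, which are p300-deficient heterozygotes, and wild-type littermates. Their genes were taken as all probe sets with exactly 1 annotated gene symbol that begins with Mrpl or Mrps and a number, which gave 156 of 45101 probe sets on the array, for 76 genes. Mrpl30 and Mrpl53 had no probe set under a single symbol. Another 4 probe sets that name a Mrpl or Mrps gene beside a further gene were left out.

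Mitochondria keep ribosomes of their own, which translate the few messages of the mitochondrial genome into core subunits of the respiratory chain and of ATP synthase. All proteins of this ribosome are encoded in the nucleus, made in the cytosol and imported, and they join ribosomal RNA transcribed inside the organelle. Names in Mrpl denote proteins of the large subunit, which forms peptide bonds, and names in Mrps those of the small subunit, which decodes the message. Some descend from bacterial ribosomal proteins and others are specific to mitochondria. Neurons depend heavily on oxidative phosphorylation, and p300 (Ep300) is a lysine acetyltransferase and transcriptional coactivator.

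Mice of both genotypes were female, 3 months old and kept on the C57BL/6J background. Each of 6 Affymetrix Mouse Genome 430 2.0 arrays measured a pool of equal amounts of hippocampal RNA from 4 animals, and each genotype had 3 pools, so 12 p300+/- and 12 wild-type mice entered. The p300+/- animals carry 1 deficient allele, whose construction the labels leave out, and expression was measured in a study of their physical and cognitive traits. Pooling hides the spread between animals. The tissue was whole hippocampus, so fewer cells of a type and less RNA per cell cannot be told apart. Each value is a log2 difference from the same probe set's median over the 6 arrays, and a fold change is the mean of the p300+/- pools minus that of the wild-type pools.

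The pools named p300+/- 3 and wild-type 2 stood apart from the other 4 across the array. The SD of all 45037 non-control probe sets was 0.290 and 0.331 in them, against 0.182 to 0.207 elsewhere, and their values correlated with each other over probe sets (r = 0.55, a description, with probe sets sharing the same pools). The pools p300+/- 1 and wild-type 1 also correlated (r = 0.45). Median levels of 11 neuron markers were -0.28 in p300+/- 3 and -0.64 in wild-type 2 against 0.029 to 0.20 in the other pools, and 8 of the 11 were lowest in these pools. Choroid plexus markers (13 of 15 measured) had a median of 0.38 in p300+/- 3 and -2.28 in wild-type 2, against -0.17 to 0.27 elsewhere, and all 13 were higher in p300+/-. The median of 9 microglia markers was 0.45 in p300+/- 3 and 0.18 in wild-type 2, against -0.17 to 0.017, and that of 8 blood markers 0.42 in p300+/- 3 and 0.13 in wild-type 2, against -0.24 to 0.099. The median of 8 astrocyte markers stayed within -0.085 to 0.040 in every pool. Single astrocyte markers varied more, with a median range of 0.44 over the 6 pools. The median of 7 oligodendrocyte markers was 0.048 in p300+/- 3 and -0.17 in wild-type 2, against -0.00088 to 0.048 elsewhere. Of these 7, 5 were higher in p300+/-. All tissue was labelled hippocampus, and 10 of the 11 neuron markers had a probe set in the highest class of signal (defined further on). The Ep300 probe set 1434765_at, a check of the labels, read -0.26, -0.22 and -0.50 in the p300+/- pools and 0.22, 0.38 and 0.40 in the wild-type pools, so the genotypes did not overlap. Its log2 fold change was -0.66 ± 0.13 (SE), adjusted p = 0.9999 by limma with Benjamini-Hochberg adjustment over all probe sets. The genotype results on the ribosomal proteins were therefore also computed without p300+/- 3 and wild-type 2.

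No mitochondrial ribosomal protein transcript differed between the genotypes past the threshold. Of the 156 probe sets 0 had an adjusted p under 0.05 (limma), as had 0% of all probe sets tested, and an unadjusted p under 0.05 was reached by 1 of the 156 (Mrps2 1420845_at, higher in p300+/-) against 1.22% of all, or 0.77% counting only higher ones. In 3 probe sets (of Mrps2, Mrps23 and Mrpl21) the p300+/- pools lay above all wild-type pools, a share of 1.92% against 3.19% of all. In 0 of the 156 they lay below, against 2.2% of all, and either way 5.39% of all were without overlap. The log2 fold changes ran from -0.28 to 0.32, with a median SE of 0.17. For all 156 probe sets the 95% interval lay within a 2-fold change either way, and for 90 of them within 0.5 on the log2 scale. A difference smaller than these intervals was not detectable with 3 pools a genotype.

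By sign, 95 of the 156 probe sets (60.9%) were higher in p300+/- and 61 lower, beside 51.7% higher among all probe sets. Their median log2 fold change was 0.031 and that of all probe sets 0.0057, both well under the median SE of a single probe set. With 1 probe set per gene, 55 of 76 genes (72.4%) were higher with a median of 0.056, beside 57.5% and a median of 0.024 for all 18193 genes read that way. These counts rest on single pools. Without p300+/- 3 the count higher was 57 of 156 and the median -0.050, without wild-type 2 it was 120 and 0.11, and without both it was 100 (64.1%, beside 54.1% of all) and 0.027. Leaving out wild-type 1 or wild-type 3 gave 72 and 68 higher, with medians of -0.016 and -0.018.

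Pool by pool, the proteins of both subunits were high in the same 2 pools, of different genotype. The median over the 156 probe sets was 0.0048, -0.027 and 0.19 in p300+/- pools 1, 2 and 3 and -0.063, 0.15 and -0.043 in wild-type pools 1, 2 and 3, while the medians of all probe sets lay between -0.014 and 0.023. Thus p300+/- 3 and wild-type 2 were high and the other 4 lay near 0 or below, and the genotypes overlapped. The mean of these medians was 0.055 ± 0.12 (SD, n = 3) for p300+/-, and for wild-type 0.016 ± 0.12 (SD, n = 3). The difference of 0.039 gave p = 0.5 in an exact two-sided permutation test over pools, whose smallest possible p is 0.1. It was -0.027 without p300+/- 3.

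**Figure D1:**
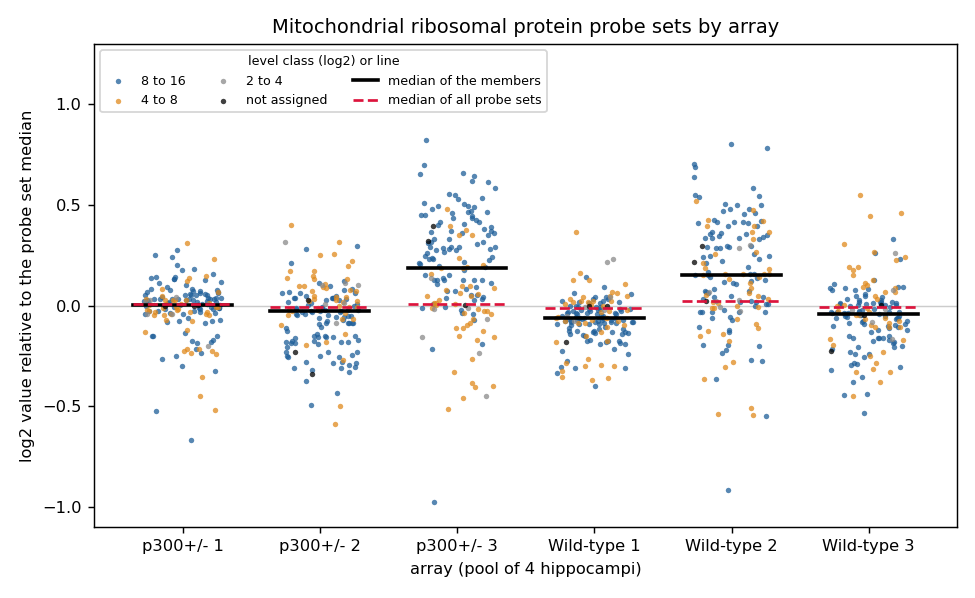
Each point is 1 of the 156 mitochondrial ribosomal protein probe sets in 1 pool, given as its log2 difference from the 6-pool median of the probe set, coloured by level class. Black lines mark the median of these probe sets (0.19 in p300+/- 3 and 0.15 in wild-type 2) and dashed red lines that of all probe sets, which stays near 0.

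In 74 of the 156 probe sets (47.4%) p300+/- 3 and wild-type 2 both lay above the other 4 pools, beside 21.3% of all probe sets. Both lay below the other 4 in 11 (7.05%), beside 15.8% of all. Of the 76 genes, 50 had at least 1 probe set of the first kind, a count that grows with the probe sets per gene (2 or more in 42 genes). Read by the first probe set of each gene, 39 of 76 (51.3%) were of the first kind, beside 25.9% of all genes. After quantile normalization of the arrays the share of the 156 probe sets was 39.1%, beside 15.9% of all. Neuron markers were low and microglia markers high in the same 2 pools, as given above. Other marker lists differed between these 2 pools. Choroid plexus markers had medians of 0.38 in p300+/- 3 and -2.28 in wild-type 2, and oligodendrocyte markers 0.048 and -0.17. The part of cell composition in the pool pattern was not tested. The 3'-to-5' difference of the beta-actin control probe sets, a sign of RNA quality, was -0.094 in p300+/- 3 and 0.20 in wild-type 2, against -0.12 to 0.066 in the other 4 pools. That of the Gapdh control probe sets was -0.097 in p300+/- 3 and 0.011 in wild-type 2, against -0.049 to 0.055 in the other 4 pools. The 18S rRNA control probe sets differed more between pools. Their median was -0.17, -1.23 and 0.26 in p300+/- pools 1, 2 and 3. In wild-type pools 1, 2 and 3 it was 0.68, 0.45 and -1.22.

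The pattern was seen mostly in the brighter probe sets. The deposited values hold no absolute level, but their binary rounding gives a coarse class of log2 intensity, here called the level class. Of the 156 probe sets, 100 (64.1%) fell in the class from 8 to 16, beside 29.3% of all probe sets, and 72 of the 76 genes had a probe set there. The medians of these 100 were 0.022, -0.068 and 0.29 in p300+/- pools 1, 2 and 3 and -0.072, 0.20 and -0.049 in wild-type pools 1, 2 and 3. In 60 of the 100 both pools lay above the other 4, beside 23.8% of all probe sets of that class. In the class from 4 to 8 this held for 12 of 46 (26.1% beside 19.6%), and in the class from 2 to 4 for 0 of 7 (beside 22.1%). The sign of the genotype difference varied with the class too. In the top class 69 of 100 were higher in p300+/-, beside 51.0% of all probe sets of that class. In the middle class 23 of 46 were, beside 52.0%, and in the lowest 1 of 7, beside 52.3%.

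Several genes of both subunits showed the pattern most plainly, and these examples were chosen after their values were seen. Mrps31, a small subunit protein specific to mitochondria, read -0.038, 0.038 and 0.82 in p300+/- pools 1, 2 and 3 and -0.18, 0.78 and -0.21 in wild-type pools 1, 2 and 3 (probe set 1417737_at). Its second, dimmer probe set, 1443165_at, read -0.066 in p300+/- 3 and 0.16 in wild-type 2. Mrps22, another small subunit protein without a bacterial counterpart, read 0.62 in p300+/- 3 and 0.80 in wild-type 2, and -0.048 to 0.0058 in the other pools. Mrpl35, a bacterial-type large subunit protein, read 0.70 in p300+/- 3 and 0.64 in wild-type 2 (probe set 1419363_a_at) against -0.22 to 0.074 elsewhere. These 3 transcripts thus differed far more between pools of the same genotype than between genotypes, with log2 fold changes of 0.14, -0.060 and 0.11. Mrpl32, whose maturation by a mitochondrial protease is a step of ribosome assembly, read 0.64 in p300+/- 3 and 0.55 in wild-type 2, with -0.037 to 0.015 in the other 4. Mrpl39 read 0.58 in p300+/- 3 and 0.54 in wild-type 2, with -0.13 to 0.019 elsewhere. Mrpl47, a bacterial-type (L29) protein at the exit of the peptide tunnel, read 0.51 in p300+/- 3 and 0.69 in wild-type 2, with -0.23 to 0.036 elsewhere.

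A few single probe sets ran the other way. The Mrpl21 probe set 1437795_at had the widest range of all the mitochondrial ribosomal protein probe sets, 1.25, and read 0.28, 0.078 and -0.98 in p300+/- pools 1, 2 and 3 and 0.14, -0.92 and -0.078 in wild-type pools 1, 2 and 3. Mrps10 (1458999_at), Mrps14 (1443262_at) and Mrpl58 (1444276_at), all in the class from 4 to 8, were also lowest in these 2 pools. Mrpl58 encodes a peptidyl-tRNA hydrolase built into the large subunit that frees stalled chains, and read -0.27 in p300+/- 3 and -0.54 in wild-type 2. Other probe sets of the same genes did not run this way. All 4 genes had at least 1 probe set in the top level class for which p300+/- 3 and wild-type 2 were highest. They read 0.53 in p300+/- 3 and 0.42 in wild-type 2 for Mrpl21 1452580_a_at, 0.29 in p300+/- 3 and 0.34 in wild-type 2 for Mrps10 1428153_at, 0.39 in p300+/- 3 and 0.41 in wild-type 2 for Mrps14 1420489_at and 0.47 in p300+/- 3 and 0.16 in wild-type 2 for Mrpl58 1460308_a_at.

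**Figure D2:**
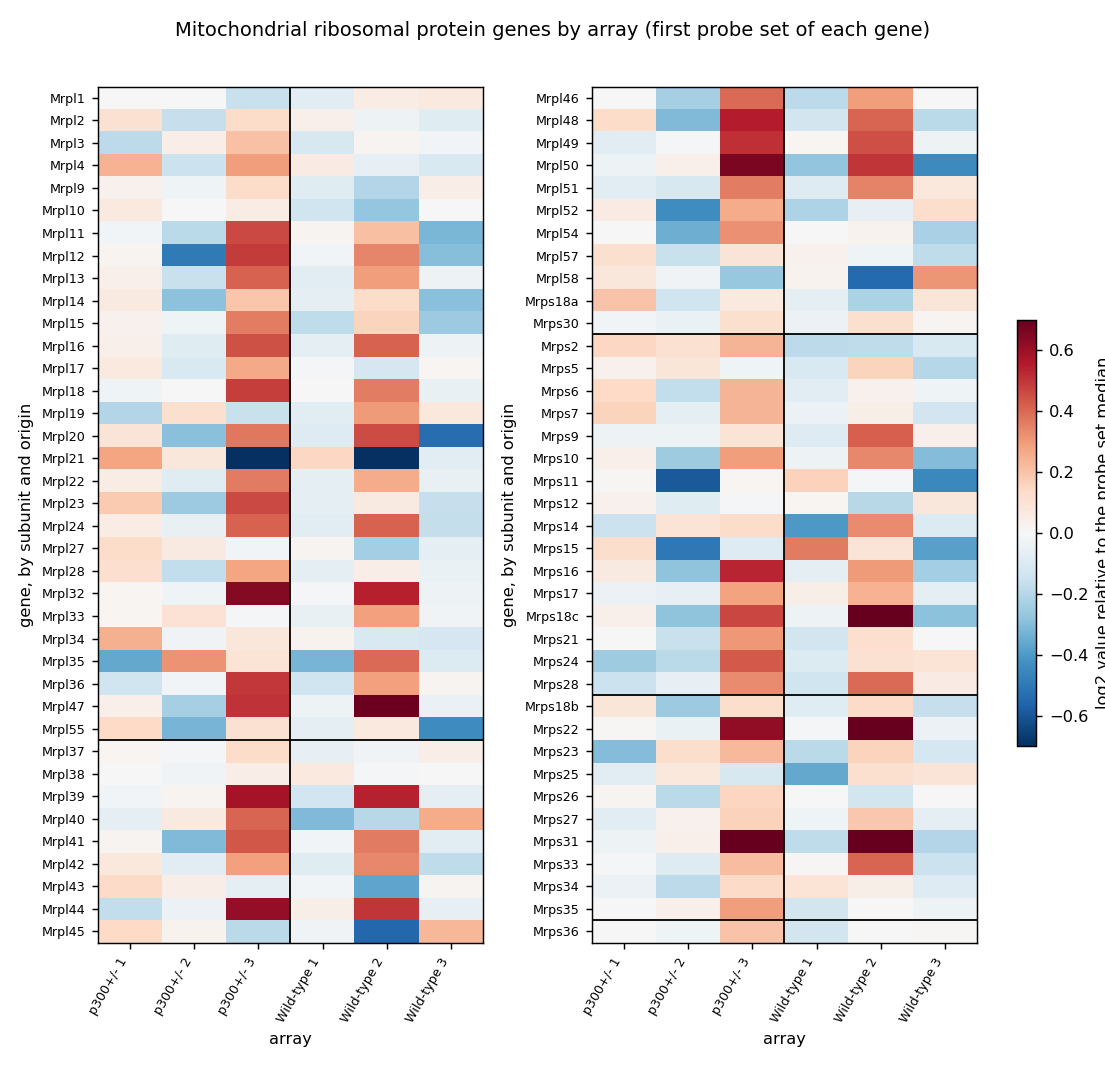
Each row is 1 of the 76 genes, read by its first probe set and grouped by subunit and by bacterial or mitochondrial origin, and each column is 1 pool, coloured by log2 relative to the probe set's median. Red fills much of the p300+/- 3 and wild-type 2 columns in all groups, and in 39 of the 76 genes these are the highest pools.

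Promoter sequences of 4 genes are shown because probe sets of many of these genes were high in the same pools, and because some of the genes share their start region with a neighbour. They are the windows of Mrps2 (chr2:28467816-28468115, plus strand), the gene of the probe set with the smallest p, of Mrps11 (chr7:78782881-78783180, plus strand) and Mrpl21 (chr19:3282792-3283091, plus strand), 2 genes with a divergent neighbour, and of Mrps12 (chr7:28741772-28742071, minus strand), which faces the mitochondrial seryl-tRNA synthetase gene Sars2. Of these 4 genes, Mrps2 and Mrps12 had 0 probe sets with p300+/- 3 and wild-type 2 highest, and Mrps11 and Mrpl21 had 1 each. Sequences are from RefSeq, build GRCm38.p6, and run 5′ to 3′ from 250 bases before to 50 after the gene's start. Capitals mark matches to the ETS motif CCGGAAG, the NRF1 motif (GCGCA, any base, GCGC) or the YY1 motif AANATGGC on either strand.
Mrps2: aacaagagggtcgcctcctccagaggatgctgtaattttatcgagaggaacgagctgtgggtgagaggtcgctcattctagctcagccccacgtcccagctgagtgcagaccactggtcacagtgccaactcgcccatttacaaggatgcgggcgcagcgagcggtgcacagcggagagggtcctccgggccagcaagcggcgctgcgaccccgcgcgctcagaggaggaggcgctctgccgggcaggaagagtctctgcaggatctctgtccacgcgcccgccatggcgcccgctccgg
Mrps11: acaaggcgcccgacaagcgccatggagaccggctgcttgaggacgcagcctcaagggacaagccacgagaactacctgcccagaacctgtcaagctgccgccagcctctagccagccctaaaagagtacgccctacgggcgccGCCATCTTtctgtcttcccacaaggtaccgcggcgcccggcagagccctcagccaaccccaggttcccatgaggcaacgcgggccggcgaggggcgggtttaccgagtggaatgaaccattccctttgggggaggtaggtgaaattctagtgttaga
Mrpl21: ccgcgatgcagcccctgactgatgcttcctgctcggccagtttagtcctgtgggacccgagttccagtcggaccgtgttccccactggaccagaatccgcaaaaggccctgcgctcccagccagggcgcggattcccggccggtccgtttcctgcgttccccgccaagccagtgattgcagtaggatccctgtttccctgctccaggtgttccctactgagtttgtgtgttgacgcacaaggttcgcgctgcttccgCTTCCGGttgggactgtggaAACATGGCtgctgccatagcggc
Mrps12: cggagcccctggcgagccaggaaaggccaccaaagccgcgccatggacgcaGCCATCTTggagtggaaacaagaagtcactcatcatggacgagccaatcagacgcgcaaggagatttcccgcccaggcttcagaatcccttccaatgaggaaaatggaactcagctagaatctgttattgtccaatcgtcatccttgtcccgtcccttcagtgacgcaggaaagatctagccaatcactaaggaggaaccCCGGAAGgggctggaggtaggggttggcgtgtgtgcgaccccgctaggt
The Mrps2 window held no match. That of Mrps11 held a YY1 match that begins at base -107 from the start (base 0), that of Mrpl21 an ETS match at 7 and a YY1 match at 27, and that of Mrps12 a YY1 match at -199 and an ETS match at 1.

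Windows were found for 67 of the 76 genes and compared with those of 17491 protein-coding genes, and with 6385 of these that had a probe set in the top level class (the bright genes). The ETS motif occurred in 24 of the 67 (35.8%), beside 18.5% of the bright genes and 11.9% of all. The YY1 motif occurred in 21 (31.3%), beside 9.71% and 6.69%, and the NRF1 motif in 12 (17.9%), beside 12.1% and 6.6%. At least 1 of the ETS, NRF1 and YY1 motifs stood in 44 of the 67 windows (65.7%), beside 34.6% of the bright genes and 22.2% of all. NRF1 and ETS-family factors are known as regulators of nuclear genes for mitochondrial proteins. These shares describe the letters of the windows and say nothing of binding in this tissue.

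Other motifs were searched on both strands as well, and none of the motifs contains another. The SP1 motif GGGCGG occurred in 34 windows (50.7%, beside 66.3% of the bright genes and 46.3% of all), the CCAAT box in 26 (38.8%, beside 37.8% and 39%), the E-box CACGTG in 5 (7.46%, beside 10.6% and 7.9%) and the CRE core TGACGT in 8 (11.9%, beside 12.7% and 8.76%). A CpG ratio of observed over expected above 0.6 held for 62 of the 67 (92.5%), beside 76.3% of the bright genes and 48.3% of all. Motifs did not sort the genes by the pool pattern in a single direction. By first probe set, p300+/- 3 and wild-type 2 were highest for 11 of 24 genes with an ETS motif and 24 of 43 without, 12 of 21 with a YY1 motif and 23 of 46 without, and 7 of 12 with an NRF1 motif and 28 of 55 without.

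A gene on the other strand started within 1000 bases of 23 of the 67 starts (34.3%), beside 11.5% of the bright genes and 8.04% of all, and for 20 of these 23 within 350 bases. The starts of Mrps11 and Mrpl46, both of this ribosome, lay 42 bases apart, and the pair counts under both names. Mrpl46 read 0.39 and 0.30 in p300+/- 3 and wild-type 2, its highest pools. The 2 Mrps11 probe sets differed from each other: 1460195_at, in the top level class, read 0.37 in p300+/- 3 and 0.14 in wild-type 2, also its highest pools, and 1455233_at, in the class from 4 to 8, read 0.014 and -0.0086 there and was low in p300+/- 2 (-0.59) and wild-type 3 (-0.45). With each gene read by its first probe set, p300+/- 3 and wild-type 2 were highest for 12 of the 23 genes and 10 of the 23 neighbours. The share of all genes was 25.9%. Sharing within pairs beyond these single counts was not tested. In 7 of the 23 pairs both genes were highest in p300+/- 3 and wild-type 2. They included Mrpl32 with the proteasome subunit gene Psma2 (0.41 and 0.53 for Psma2 in those pools), Mrpl47 with the complex I subunit gene Ndufb5 (0.30 and 0.32) and Mrpl49 with Fau (0.16 and 0.13), which encodes a cytosolic ribosomal protein. Mrps12 and Sars2, 147 bases apart, did not share it: Mrps12 read -0.014 and -0.19 and Sars2 0.21 and 0.020.

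In the large subunit 65 of 106 probe sets (49 genes) were higher in p300+/-, with a median log2 fold change of 0.036, and 0 of 106 had an unadjusted p under 0.05 by limma. Bacterial-type proteins (65 probe sets of 29 genes) had a median of 0.033 with 41 higher, and mitochondria-specific ones (41 probe sets of 20 genes) a median of 0.044 with 24 higher. Array medians of these groups were 0.15 in p300+/- 3 and 0.16 in wild-type 2 for the first and 0.28 in p300+/- 3 and 0.15 in wild-type 2 for the second, with -0.061 to 0.015 and -0.058 to -0.00070 in the other pools.

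Among the bacterial-type proteins, Mrpl21 (1456275_at) had the smallest p of those higher in p300+/-. It read 0.032, 0.061 and 0.45 in the p300+/- pools and -0.047, -0.032 and -0.16 in the wild-type pools. All p300+/- pools lay above all wild-type pools, by 0.26 ± 0.14 (SE), with p300+/- 3 highest. Mrpl10 (1418112_at), which anchors the stalk that recruits translation factors, read 0.071, -0.0049 and 0.053 in the p300+/- pools and -0.14, -0.27 and 0.0049 in the wild-type pools, and p300+/- 2 and wild-type 3 overlapped. Its log2 fold change was 0.17 ± 0.12 (SE). On the lower side Mrpl13 (1459856_at) read 0.0055, -0.087 and -0.45 in the p300+/- pools and -0.0055, 0.029 and 0.26 in the wild-type pools, a difference of -0.27 ± 0.16 (SE) that came mostly from p300+/- 3 and wild-type 3. Mrpl35 (1440989_at) read -0.23, 0.13 and -0.17 in the p300+/- pools and -0.13, 0.47 and 0.23 in the wild-type pools, -0.28 ± 0.18 (SE), and here p300+/- 3 was low while the brighter Mrpl35 probe set above was high in that pool. Mrpl12, the stalk protein (L7/L12) itself, read 0.022, -0.50 and 0.49 in the p300+/- pools and -0.022, 0.34 and -0.30 in the wild-type pools. Its mean difference was -0.0027 ± 0.27 (SE), and the wild-type range lay within the p300+/- range.

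Of the mitochondria-specific large subunit proteins, Mrpl38 (1447961_s_at) read 0.18, -0.0074 and 0.33 in the p300+/- pools and -0.093, 0.0074 and -0.021 in the wild-type pools, with an overlap of p300+/- 2 and wild-type 2 and a log2 fold change of 0.20 ± 0.13 (SE). Mrpl40 read -0.063, 0.063 and 0.41 in the p300+/- pools and -0.31, -0.19 and 0.26 in the wild-type pools, with wild-type 3 above p300+/- 1 and 2 and a difference of 0.22 ± 0.19 (SE). Mrpl50 (1424164_at) was among the 3 probe sets with the widest range, and read -0.035, 0.035 and 0.66 in the p300+/- pools and -0.28, 0.50 and -0.44 in the wild-type pools. Its difference of 0.29 ± 0.29 (SE) was about as large as its error, and its other probe set, 1451266_at, was at -0.11 ± 0.20 (SE). Mrpl48 (1442016_at) had a difference of -0.22 ± 0.20 (SE), set by -0.41 in p300+/- 3 and 0.46 in wild-type 3, and Mrpl42 (1437922_at) one of -0.11 ± 0.12 (SE).

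In the small subunit 29 of 49 probe sets (26 genes) were higher in p300+/-, with a median of 0.017. The bacterial-type proteins (33 probe sets of 16 genes) had 18 higher and a median of 0.017, and the mitochondria-specific ones (16 probe sets of 10 genes) had 11 higher and a median of 0.019. Array medians over the whole subunit were 0.16 in p300+/- 3 and 0.14 in wild-type 2, and -0.069 to 0.0044 in the other pools.

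Mrps2, a bacterial-type protein (uS2) on the solvent side of the small subunit, had the smallest p with 1 of its 2 probe sets. That one, 1420845_at, read 0.15, 0.11 and 0.24 in p300+/- pools 1, 2 and 3 and -0.18, -0.18 and -0.11 in wild-type pools 1, 2 and 3. All p300+/- pools lay above all wild-type pools with a gap between 0.11 and -0.11, and p300+/- 3 and wild-type 2 did not stand out together. The log2 fold change was 0.32 ± 0.11 (SE), a fold of 1.25 with a 95% interval of 1.05 to 1.48 (limma, unadjusted p = 0.0193, adjusted p = 0.9999). Among all probe sets its p ranked 132. This probe set lay in the class from 4 to 8 and kept its sign under the alternatives tried, at 0.27 to 0.35. The other, brighter Mrps2 probe set, 1420846_at in the class from 8 to 16, read -0.15, 0.068 and 0.044 in the p300+/- pools and -0.13, 0.19 and -0.044 in the wild-type pools. Here the genotypes overlapped, wild-type 2 was highest, and the log2 fold change was -0.020 ± 0.13 (SE).

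Mrps23, a mitochondria-specific protein, was the other small subunit transcript whose genotypes did not overlap. Its probe set 1421875_a_at read 0.052, 0.11 and 0.032 in the p300+/- pools and -0.17, -0.032 and -0.24 in the wild-type pools, but the gap between the genotypes was from 0.032 to -0.032. The log2 fold change was 0.21 ± 0.11 (SE), and over the gene's 3 probe sets it ran from -0.026 to 0.21. Mrps7 (uS7), which binds ribosomal RNA early in assembly, read 0.16, -0.064 and 0.24 in the p300+/- pools and -0.043, 0.043 and -0.13 in the wild-type pools, 0.15 ± 0.13 (SE). Mrps35 read -0.0052, 0.035 and 0.29 in the p300+/- pools and -0.13, 0.0052 and -0.038 in the wild-type pools, 0.16 ± 0.13 (SE). In both the genotypes overlapped and p300+/- 3 was highest. With the smallest p among mitochondria-specific proteins lower in p300+/- were Mrps26 (1441053_at) at -0.067 ± 0.11 (SE) and Mrps34 (1421971_a_at) at -0.046 ± 0.13 (SE), both smaller than their errors.

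Mrps12 (uS12) sits at the decoding centre, and its probe set 1448799_s_at had a range of 0.28, beside a median range of 0.55 over the 156 probe sets, with 0.032, -0.086 and -0.014 in the p300+/- pools and 0.014, -0.19 and 0.081 in the wild-type pools. The 3 Mrps18 genes encode related proteins that occupy different places, Mrps18b and Mrps18c in the small subunit and Mrps18a in the large one. Mrps18c read 0.036, -0.28 and 0.47 in the p300+/- pools and -0.036, 0.70 and -0.29 in the wild-type pools, and was high in the same 2 pools as the family as a whole. Mrps18b was also positive in both (0.13 in p300+/- 3 and 0.14 in wild-type 2), and Mrps18a was not (0.070 in p300+/- 3 and -0.22 in wild-type 2). Their log2 fold changes were -0.053 ± 0.29 (SE), 0.021 ± 0.15 (SE) and 0.11 ± 0.14 (SE) in that order. Mrps30, which despite its name belongs to the large subunit, spanned only 0.16 over the 6 pools, from -0.048 to 0.11, with a difference of -0.013 ± 0.11 (SE). Mrps36, now known as a subunit of the 2-oxoglutarate dehydrogenase complex and not of the ribosome, read 0.0012, -0.028 and 0.20 in the p300+/- pools and -0.13, -0.0012 and 0.0062 in the wild-type pools, 0.098 ± 0.12 (SE).

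**Figure D3:**
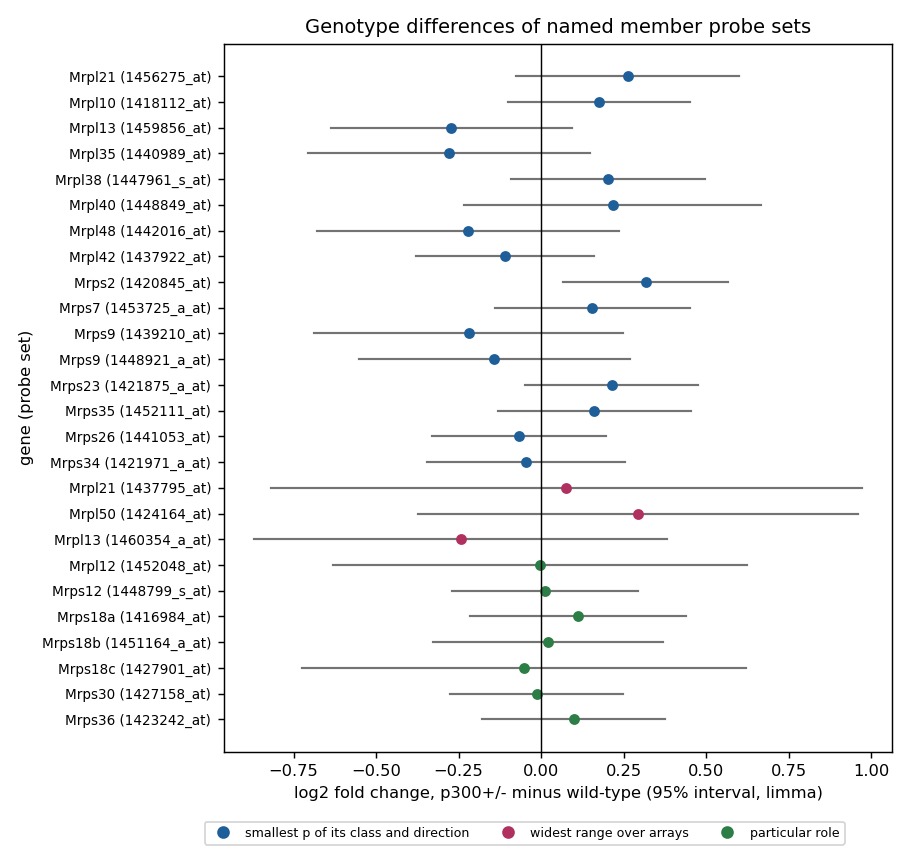
Log2 fold change of p300+/- against wild-type (points) with its 95% interval (lines, limma) for the probe sets named by p, by range or by role. The interval of Mrps2 1420845_at alone excludes 0, without adjustment, and the widest belong to Mrpl21 1437795_at, Mrps18c and Mrpl50.

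Where several probe sets read 1 gene, they often differed in sign. Of 42 genes with 2 or more probe sets, 13 had all of them on the same side of 0. Of 24 genes with 3 or more (86 probe sets), 4 had. Mrps9 (uS9), whose tail reaches towards the decoding site, was lower in p300+/- with all 4 of its probe sets, at -0.22 to -0.053. The only one in the top level class, 1448921_a_at, read 0.052, -0.17 and 0.028 in the p300+/- pools and -0.11, 0.47 and -0.028 in the wild-type pools, so that wild-type 2 set the difference of -0.14 ± 0.18 (SE). Without p300+/- 3 and wild-type 2 it was 0.0085. Another Mrps9 probe set, 1439210_at, read 0.23, -0.18 and -0.51 in the p300+/- pools and 0.13, -0.13 and 0.19 in the wild-type pools, with p300+/- 3 lowest. The other genes with 1 sign were Mrpl21 (3 probe sets, 0.010 to 0.26), Mrps14 (3, 0.017 to 0.080) and Mrps25 (3, 0.015 to 0.049).

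Mrpl15 (uL15), a bacterial-type protein of the large subunit, was read by 8 probe sets, 5 higher and 3 lower, from -0.18 to 0.21, a spread of 0.39, the widest among the genes with 3 or more probe sets. Its 4 probe sets in the top level class were all high in p300+/- 3 and wild-type 2, for example 0.35 in p300+/- 3 and 0.37 in wild-type 2 for 1434971_x_at. Its probe set in the lowest class, 1460490_at, stayed within -0.066 to 0.042. Of all 76 genes only Mrpl50, with 2 probe sets at -0.11 and 0.29, spread wider (0.40). Mrpl35 spread over 0.39 (-0.28 to 0.11) and Mrpl3 over 0.33 (-0.16 to 0.17). Mrpl13, with 4 probe sets, had 1 higher and 3 lower. Its probe set 1460354_a_at read -0.67, -0.090 and 0.23 in the p300+/- pools and -0.31, 0.43 and 0.090 in the wild-type pools, a difference of -0.24 ± 0.27 (SE), while 1424204_at read 0.034, -0.15 and 0.41 in the p300+/- pools and -0.080, 0.29 and -0.034 in the wild-type pools. Mrps5 had 4 of 5 probe sets higher (-0.015 to 0.083).

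The remaining genes with 3 or more probe sets had probe sets on both sides of 0. The counts higher in p300+/- were Mrpl1 (1 of 3), Mrpl11 (3 of 4), Mrpl17 (1 of 3), Mrpl19 (2 of 4), Mrpl28 (1 of 3), Mrpl38 (1 of 3), Mrpl41 (2 of 3), Mrpl44 (1 of 4), Mrpl47 (2 of 3), Mrpl48 (1 of 3), Mrpl51 (1 of 3), Mrpl52 (2 of 4), Mrpl9 (2 of 3), Mrps15 (1 of 3) and Mrps23 (2 of 3). Their log2 fold changes lay between -0.22 and 0.21. The pools p300+/- 3 and wild-type 2 were highest for all 4 Mrpl11 probe sets and all 3 of Mrpl41, and for 3 of 4 of Mrpl44, but for 0 of those of Mrpl9, Mrpl17, Mrpl19, Mrpl28 and Mrpl38.

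**Figure D4:**
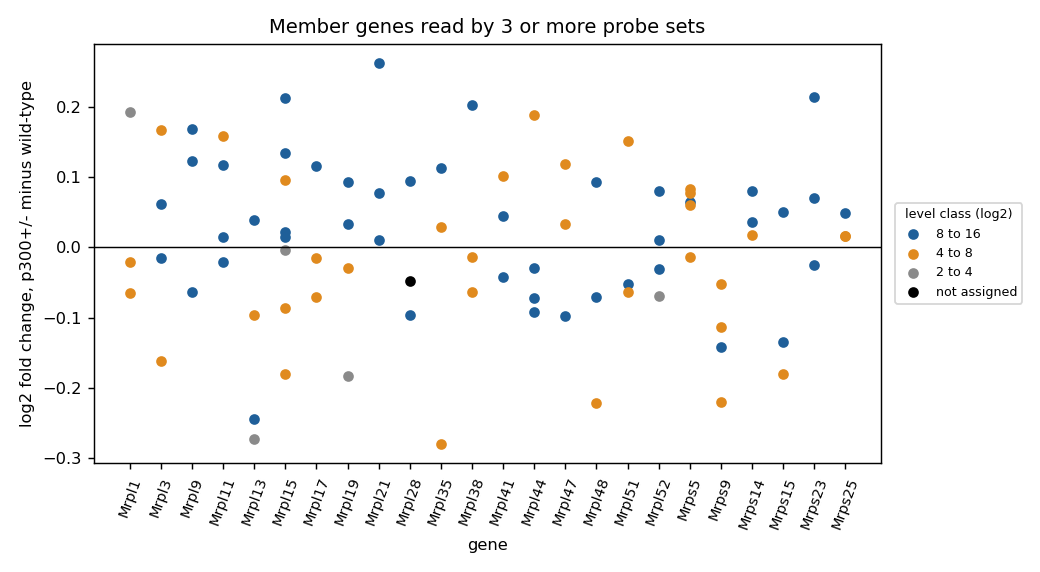
Each point is the log2 fold change of 1 probe set, for the 24 genes read by 3 or more probe sets, coloured by level class. Points of 1 gene fall on both sides of 0 in 20 of the 24 genes, and among these 24 the spread is widest in Mrpl15 and Mrpl35 (0.39 each).

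Other genes of mitochondrial translation gave 0 calls too, each read by its first probe set. Read that way, 57.5% of all genes were higher in p300+/-, with a median log2 fold change of 0.024. The ribosomal proteins under other names (4 of 7 listed were measured: Dap3, Ptcd3, Chchd1 and Gadd45gip1) had array medians of 0.43 in p300+/- 3 and 0.38 in wild-type 2, and 2 of 4 were higher in p300+/-. Dap3, a GTP-binding small subunit protein, differed by 0.087 ± 0.14 (SE) and Gadd45gip1, a large subunit protein, by 0.21 ± 0.23 (SE). Assembly and rRNA-modifying factors (25 of 25) had 14 higher and a median log2 fold change of 0.024. Their array medians were 0.22 in p300+/- 3 and 0.18 in wild-type 2, and 14 of 25 were highest in both those pools. C1qbp, a matrix protein, differed by 0.17 ± 0.12 (SE) and Pnpt1, an RNA-degrading enzyme, by -0.19 ± 0.11 (SE).

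Translation factors (14 of 17) and mitochondrial tRNA synthetases with the amidotransferase subunits (19 of 20) had list medians that varied less between pools. Array medians were 0.069 in p300+/- 3 and 0.084 in wild-type 2 for the first and 0.068 in p300+/- 3 and 0.044 in wild-type 2 for the second. The single genes were not all steadier. Their median range over the pools was 0.58 for the factors and 0.45 for the synthetases, beside 0.53 for the mitochondrial ribosomal protein genes. Of the factors 6 were higher and 8 lower, with Tufm, the elongation factor that delivers tRNA, at 0.23 ± 0.15 (SE) and Pdf, the peptide deformylase, at 0.12 ± 0.12 (SE). Of the synthetases and related genes 11 were higher and 8 lower, with Vars2 (valyl) at -0.16 ± 0.15 (SE) and Sars2 (seryl) at 0.12 ± 0.17 (SE). Regulators of mitochondrial transcription and biogenesis (17 of 17) were mostly on the lower side, 13 lower and 4 higher, with a median of -0.055. With the mean over the probe sets of each gene this median was -0.024. Tfb2m, needed to start mitochondrial transcription, differed by -0.23 ± 0.12 (SE), and Ppargc1a, the coactivator PGC-1alpha, by -0.27 ± 0.18 (SE).

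Import machinery (24 of 26) had 16 higher, 8 lower and a median of 0.071, or 0.025 with the mean over the probe sets of each gene. Pmpca, a subunit of the peptidase that removes import signals, differed by 0.29 ± 0.12 (SE), and Timm17b, of the inner membrane translocase, by 0.19 ± 0.13 (SE). Of the 24 genes only Pmpca had an unadjusted p under 0.05 (limma), 4.17% beside 1.03% of all genes read by first probe set. The lists of mitochondrial translation, assembly and biogenesis genes above had 0 such genes. Of the mitochondrial genome itself only ND5, a complex I subunit, had a probe set. It read 0.019, 0.11 and -0.046 in the p300+/- pools and -0.56, -0.019 and 0.064 in the wild-type pools, so wild-type 1 was low and p300+/- 3 and wild-type 2 were not high.

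A pair of lists of other proteins encoded in the nucleus shared the pool pattern. Of 79 respiratory chain and ATP synthase genes 48 (60.8%) were highest in p300+/- 3 and wild-type 2, with array medians of 0.21 in p300+/- 3 and 0.16 in wild-type 2. Of 49 cytosolic ribosomal protein genes 36 (73.5%) were, with 0.19 in p300+/- 3 and 0.21 in wild-type 2. Read the same way, the mitochondrial ribosomal protein genes stood at 39 of 76 (51.3%), with 0.25 in p300+/- 3 and 0.13 in wild-type 2, and all genes at 25.9%. Between genotypes the medians were 0.044 for the respiratory chain (54 of 79 higher), -0.00060 for the cytosolic ribosome (24 of 49 higher) and 0.056 for the mitochondrial ribosome (55 of 76 higher).

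**Figure D5:**
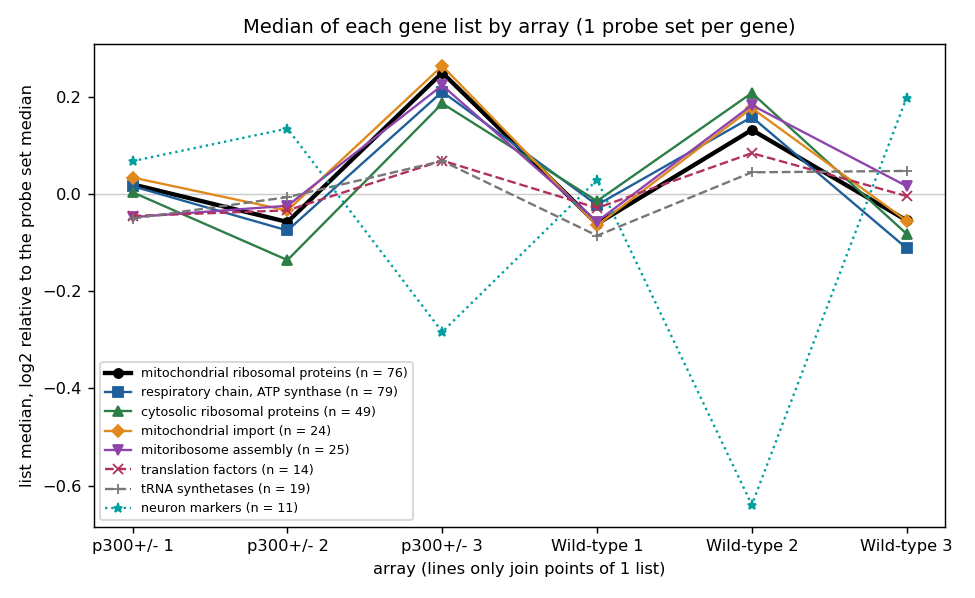
Median of each gene list in each pool, as log2 relative to the probe set's own median, with 1 probe set per gene. Ribosomal, respiratory chain, import and assembly genes peak in p300+/- 3 and wild-type 2 (0.25 and 0.13 for the mitochondrial ribosomal proteins), where neuron markers are lowest (-0.28 and -0.64).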

How the data were processed

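Hippocampal RNA pools were hybridized to 6 arrays, 3 per genotype. Per the labels' protocols, the authors processed and normalized the arrays in GeneSpring GX. Its version, probe summarization and normalization are not stated there. All deposited values are log2 values relative to each probe set's median (row medians within 1e-06 of 0). The log base is not stated and was taken as 2, so fold changes, not directions, depend on it. Rounding of the values to binary grids gave the level class. Of 45037 probe sets without the 64 controls, 34945 had 1 gene symbol in the platform annotation, 932 several and 9160 none.

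Genotypes were compared per probe set with limma 3.58.1 in R 4.3.3 (lmFit, eBayes), two-sided, without filter or covariates, with Benjamini-Hochberg adjustment over all 45037 and a threshold of 0.05. The p-values measure the spread between 3 pools. The fit was tested on simulated data. Members and gene lists were chosen with earlier results of these data known. Named were, per subunit class and direction, the 2 probe sets with the smallest p, the 3 with the widest range, all probe sets of genes with 3 or more, 7 genes of particular role, 2 genes per pathway list, and Ep300. The genes shown for the pool pattern, further probe sets of named genes, the neighbours at shared starts and the printed promoters were chosen after their values were seen. Symbols were updated by gene identifier to RefSeq (GRCm38.p6). Divergent starts and motifs were counted on the RefSeq promoter windows. Figures used matplotlib 3.10.9.

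The alternatives were quantile normalization, centring of arrays, array weights, trend and robust moderation, the replicate number as a block, a threshold of 0.1, omission of probe sets ending in _s_at, _x_at or _a_at or of the lowest class, 1 value per gene, subunits under other names added, each pool left out in turn and both outlying pools left out. Centring on the highest level class was chosen after seeing the data.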

Additional observations from a re-analysis of the deposited data

How the results depend on the processing

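No probe set was called by limma in any alternative, at a threshold of 0.1 included, and the 40 named probe sets had no adjusted p under 0.727. An unadjusted p under 0.05 was reached by 385 to 1632 of all probe sets and by 1 to 4 of the mitochondrial ribosomal protein probe sets. The number of the 156 probe sets higher in p300+/- ran from 57 to 120 when single pools were left out, lowest without p300+/- 3 and highest without wild-type 2, and was 119 with array weights, 94 after quantile normalization or median centring, 98 with other-name subunits added and 54 of 76 genes with 1 mean value per gene. Their median log2 fold change ran from -0.050 to 0.11 when single pools were left out, that of the large subunit from -0.049 to 0.11 and that of the small subunit from -0.051 to 0.10. The genotype difference of the pool medians ran from -0.027 to 0.11. The cause was not tested. With single pools left out, the median of the translation factors ran from -0.066 to 0.070 and that of the regulators of transcription and biogenesis from -0.11 to -0.047. In the same fits the medians of the other lists, ND5 and the respiratory chain included, ran from -0.088 at the lowest to 0.32 at the highest, and only ND5 and the regulators kept their sign. Of 588 values of named probe sets under alternatives, 30 had the other sign and 0 passed the threshold, while 29 of the 40 kept 1 sign throughout. Differences that changed sign when a pool was left out ran from -0.24 to 0.25 for Mrpl12, -0.45 to 0.0021 for Mrpl13 1460354_a_at, -0.24 to 0.46 for Mrpl21 1437795_at, -0.070 to 0.068 for Mrps12, -0.049 to 0.14 for Mrps18b, -0.26 to 0.24 for Mrps18c, -0.061 to 0.028 for Mrps30, -0.13 to 0.030 for Mrps34, -0.25 to 0.038 for Mrps9 1448921_a_at and -0.011 to 0.17 for Dap3. With array weights, Mrps9 1448921_a_at was at 0.0082, Mrpl21 1437795_at at -0.046, Mrps12 at -0.032, Mrps18c at 0.031 and Mrps30 at 0.013. Quantile normalization put Mrps12 at -0.024. Without p300+/- 3 and wild-type 2, Mrps9 1448921_a_at was at 0.0085, Mrps12 at -0.074, Mrps18c at 0.039 and Gadd45gip1 at -0.054. With the replicate number as a block, 95 of 156 were again higher and 0 were called. Deviations of same-numbered pools correlated at 0.61, -0.23 and -0.47, positive for number 1 only. Whether the numbers pair the pools is not settled by these values. A planned filter on low values was run by level class, since centred values hold no level, and 3 pools a genotype limit the precision throughout.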
